A study of Homo sapiens with 10 samples.

Results

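RNA-seq of 4 libraries compared a KRAB with an LSD1 repressor at the same enhancer in K562 cells, a human erythroleukemia line that expresses embryonic and fetal globin. The libraries labelled dCas9-KRAB sgHS2 (K, n = 2) and dCas9-LSD1 sgHS2 (L, n = 2) were taken by their labels from a series of 10 libraries in 5 groups of 2, and were set directly against each other. In both groups the study used stable lines transduced with a doxycycline-inducible dCas9 fusion and an rtTA transactivator, transduced again with lentiviral sgRNAs and sorted for zsGreen1, and induced with doxycycline. The methods describe sorted populations and name no clone. Both groups carried all 4 sgRNAs against HS2, and the LSD1 open reading frame stood in the place of the KRAB domain in the same vector. The other groups were enCRISPRi-LK (dCas9-LSD1 with MCP-KRAB), enCRISPRi-KL (dCas9-KRAB with MCP-LSD1), both with sgHS2, and the nontargeting sgGal4 control, for which the label names no effector. All 10 libraries entered the estimate of the spread, and the sgGal4 libraries are given as the background. The study describes the libraries of a group as separate experiments, and p-values measure the spread between them. By the methods each dCas9 fusion was put into cells that were sorted as a line of their own. A difference between effectors therefore cannot be told apart from a difference between lines. The p-values do not measure the spread between separately made lines with the same effector.

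HS2 is a DNase I hypersensitive site of the locus control region, the distal enhancer cluster that drives the β-like globin genes in erythroid cells. KRAB is a repressor domain of zinc finger proteins that recruits TRIM28 and the H3K9 methyltransferase SETDB1. LSD1, encoded by KDM1A, removes mono- and dimethylation from H3K4, marks found at enhancers, and works with CoREST and histone deacetylases. The 2 effectors therefore act through different enzymes, and the comparison asks whether the transcriptome of cells with one differs from that of cells with the other.

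The core of HS2 is shown because both repressors were sent to this element. It was located in the reference genome as the single place within 25 kb upstream of HBE1 where 2 copies of TGAGTCA, the sequence bound by NF-E2 and AP-1 factors, began within 15 bases of each other on either strand. The 2 copies, in capitals, began 10 bases apart and lay 10.8 kb upstream of the HBE1 transcription start. The 137 bases are chr11:5301923-5302059 (hg19, minus strand), in the intergenic LCR upstream of HBE1 and read in the direction of the globin genes.
HS2 core: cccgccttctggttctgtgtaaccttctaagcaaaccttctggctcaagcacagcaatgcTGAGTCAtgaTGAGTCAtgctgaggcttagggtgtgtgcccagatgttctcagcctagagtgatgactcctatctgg

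Of 10127 genes tested (those whose TPM averaged 1 or more across the 10 libraries, TPM being a length-normalised share of all transcripts), 4 differed between K and L at an adjusted p under 0.05, which is 0.0395%. FN1 and TFPI were higher in K, and ZNF10 and KDM1A were lower in K. All differences are on the log2(TPM + 1) scale, K minus L, from limma with Benjamini-Hochberg adjustment over all genes tested. Scaling by median-of-ratios size factors left 1 gene higher and 2 lower, and quantile normalization gave 3 higher and 4 lower. At an unadjusted p under 0.05 there were 516 genes higher in K (5.10% of those tested) and 329 lower (3.25%). Both K libraries lay above both L libraries in 2285 genes (22.6%) and below them in 1467 genes (14.5%). The median difference over all genes was 0.06. It was 0.003 with size factors, 0.005 with quantile normalization and -0.010 with the mitochondrial genes removed and the rest rescaled. The shares of genes above or below, here and in the lists that follow, were counted without such scaling.

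**Figure D1:**
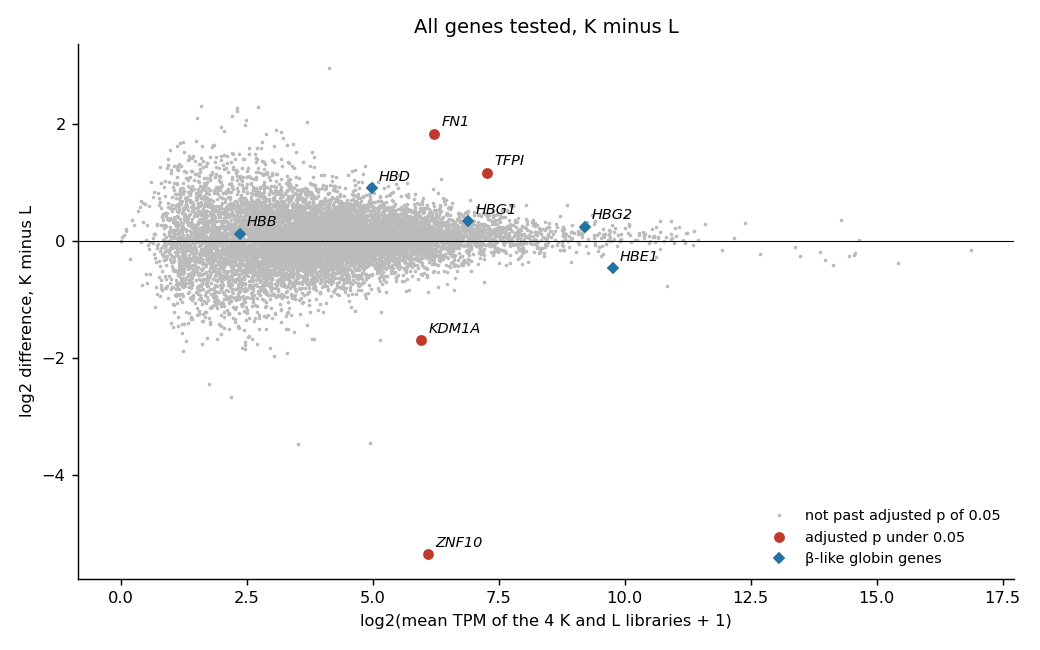
Log2 difference (K minus L, vertical axis) of each of the 10127 genes tested against log2 of its mean TPM in the 4 K and L libraries plus 1 (horizontal axis). Red points are the 4 genes past an adjusted p of 0.05, blue diamonds the β-like globin genes, and grey points the other genes, which spread more widely at low TPM.

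The precision behind these counts depended on the expression level. The median standard error of a difference was 0.27 for the 6110 genes averaging 10 TPM or more and 0.44 for the 4017 genes below that. The 95% interval of the difference lay within 1 log2 unit of 0 in 72.3% of the former and in 16.2% of the latter. Among all genes tested, 387 had a difference of at least 1 in either direction, and 4 of these passed the threshold. Replicates were about as far apart as the groups. The median absolute log2 difference was 0.34 between the K replicates and 0.30 between the L replicates, and 0.31 to 0.36 between a K and an L library.

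The effector genes were read first, since they bear on the labels. KDM1A (chr1:23345961-23410182, hg19, plus strand, 21 exons) encodes LSD1 itself. Its TPM was 29.2 and 27.7 in K and 105 and 84.2 in L, so the groups did not overlap. In sgGal4 it was 25.2 and 33.5. It was 3.22-fold higher in L than in K (log2 difference -1.69, SE 0.22, adjusted p = 0.00677), and 1.66 above sgGal4 on the log2 scale in L against -0.03 in K. In enCRISPRi-LK, which carries dCas9-LSD1 by its name, KDM1A was 27.4 and 30.6 TPM, and in enCRISPRi-KL 26.8 and 26.6 TPM. KDM1A therefore stood apart in the L libraries only, among the 10.

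ZNF10 (chr12:133707213-133736051, hg19, plus strand, 5 exons) encodes the KRAB zinc finger protein KOX1, whose KRAB domain is the one commonly fused to dCas9. It had 1.18 and 3.80 TPM in the libraries labelled K and 128 and 136 TPM in those labelled L. In sgGal4 it had 0.97 and 1.89 TPM. The K libraries, whose label names KRAB, were thus near the control and the L libraries far above it. The difference was -5.36 (SE 0.33, adjusted p = 1.54e-06), or 41.1-fold higher in L. ZNF10 was 36.8 and 31.5 TPM in enCRISPRi-LK and 365 and 360 TPM in enCRISPRi-KL. KDM1A, in contrast, was raised in L, whose label names LSD1, and not in K. It was not raised in LK or KL, which also name LSD1. Whether transcripts of the fusion constructs are counted at these genes was not tested. All statements on K and L below refer to the libraries labelled so.

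**Figure D2:**
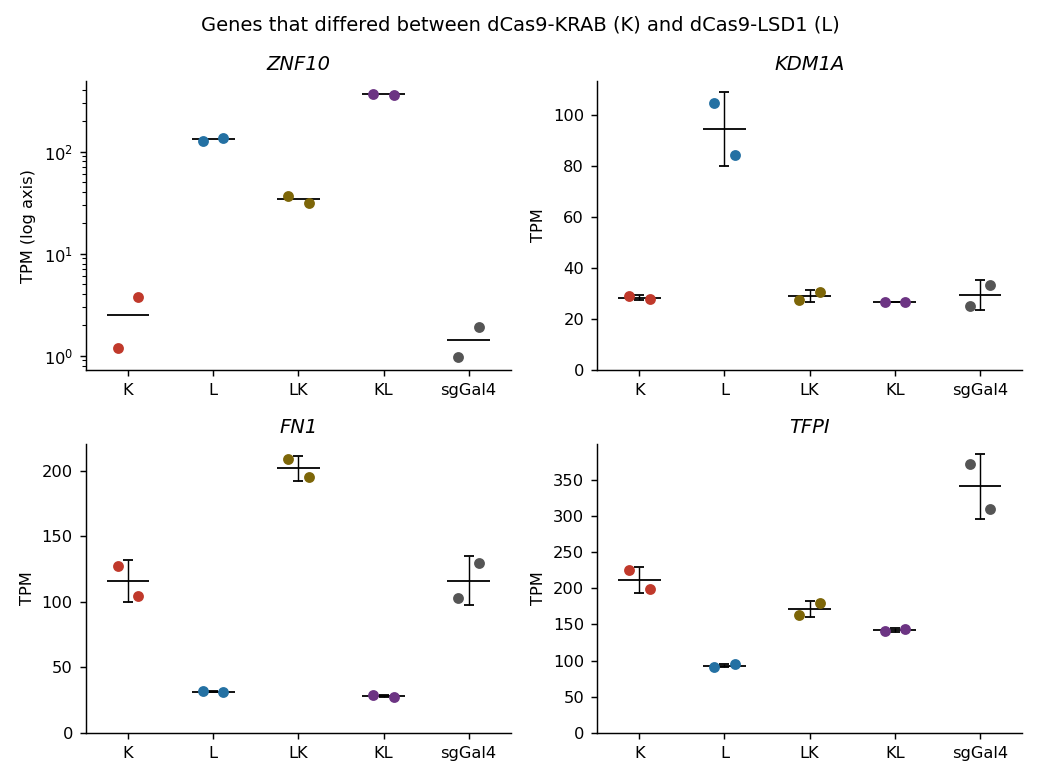
TPM of ZNF10 (log axis), KDM1A, FN1 and TFPI (linear axes) in the 2 libraries of each of the 5 groups. Points are libraries, horizontal lines group means and error bars on the linear axes 1 SD. ZNF10 and KDM1A were lower and FN1 and TFPI higher in both K libraries than in both L libraries.

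The other genes past the threshold encode secreted proteins. FN1 (chr2:216225588-216300791, hg19, minus strand, 46 exons) encodes fibronectin, an extracellular matrix glycoprotein that binds integrins. Its TPM was 127 and 104 in K and 31.7 and 31.3 in L, with no overlap. FN1 was 3.58-fold higher in K (log2 difference 1.84, SE 0.19, adjusted p = 0.000491). The control libraries, at 103 and 129 TPM, spanned the range of K, so that K differed from sgGal4 by -0.005 and L by -1.84 on the log2 scale. In enCRISPRi-LK it was 209 and 195 TPM, and in enCRISPRi-KL 28.7 and 27.4 TPM, close to L. High and low FN1 did not follow the fusion named in the labels, since dCas9-KRAB is named for K and KL and dCas9-LSD1 for L and LK.

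TFPI (chr2:188328957-188419162, hg19, minus strand, 8 exons) encodes tissue factor pathway inhibitor, an inhibitor of the start of blood coagulation. Its TPM was 225 and 198 in K and 91.4 and 95.02 in L, and it was 2.25-fold higher in K (log2 difference 1.17, SE 0.15, adjusted p = 0.00658). Both groups lay below sgGal4, which had 372 and 309 TPM, by 0.68 in K and 1.85 in L on the log2 scale. The enCRISPRi libraries lay between K and L, at 163 and 180 TPM in LK and 140 and 144 TPM in KL. TFPI was past the threshold in 13 of 19 alternative fits and KDM1A in 14, against 18 for FN1 and 19 for ZNF10. Leaving out K replicate 1 or either L library ended the call of TFPI, and leaving out either K library or L replicate 1 ended that of KDM1A, with adjusted p-values of 0.0622 to 0.167.

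The promoters of FN1 and TFPI are shown because these were the genes with higher levels in K. Each runs from 250 bases before to 50 bases after the RefSeq start, on the gene's strand (GRCh38.p14). Capitals mark matches, on either strand, to TGAGTCA (NF-E2 or AP-1), TGACGTCA (cAMP response element), and CCAAT (bound by the factor NF-Y). They also mark CACCC, which Krüppel-like factors bind, and the GATA factor sequence TTATCT. Of 27305 promoters of the same length, 4.92% held TGAGTCA, 1.98% held TGACGTCA and 35.7% held CCAAT. The short CACCC sequence was in 58.9%. TTATCT was in 10.5% of them. Of 13 named genes looked for, 5 had a promoter in the RefSeq table.
FN1 promoter, chr2:215436019-215436318, minus strand: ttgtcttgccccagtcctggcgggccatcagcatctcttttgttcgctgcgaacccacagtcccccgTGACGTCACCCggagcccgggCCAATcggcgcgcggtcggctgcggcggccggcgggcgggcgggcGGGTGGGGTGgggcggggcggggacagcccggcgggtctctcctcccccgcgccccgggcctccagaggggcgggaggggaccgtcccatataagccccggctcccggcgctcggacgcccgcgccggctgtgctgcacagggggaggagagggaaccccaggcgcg
TFPI promoter, chr2:187554386-187554685, minus strand: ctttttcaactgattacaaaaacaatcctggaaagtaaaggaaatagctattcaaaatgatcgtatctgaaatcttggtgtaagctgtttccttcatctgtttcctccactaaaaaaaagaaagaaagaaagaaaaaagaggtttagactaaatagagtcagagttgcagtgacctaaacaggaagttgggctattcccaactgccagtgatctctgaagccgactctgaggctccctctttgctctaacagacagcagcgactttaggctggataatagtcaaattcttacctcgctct
The FN1 window had 1 TGACGTCA, which runs into a CACCC, together with 1 CCAAT and 3 CACCC in all, and a GC content of 76.7%. The TFPI window held none of these sequences and had a GC content of 39.3%.

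The summed level of the β-like globin genes, the known targets of HS2, did not pass the threshold between K and L. HBE1 (embryonic ε), HBG2 and HBG1 (fetal γ), HBD (adult δ) and HBB (adult β) lie in this order downstream of the locus control region, on the minus strand of chromosome 11. Their summed TPM was 1572 and 1513 in K and 1707 and 1627 in L. In sgGal4 the sum was 2459 and 2414. Both K libraries lay just under both L libraries, and all 4 lay below the controls, by 0.66 in K and 0.55 in L on the log2 scale. K minus L was -0.11 (SE 0.10, 95% interval -0.32 to 0.10, adjusted p = 0.807). In a bulk sample, fewer expressing cells and less transcript per cell cannot be told apart.

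None of the 5 genes passed the threshold, but they did not all lean the same way. HBE1 (chr11:5289575-5291175, hg19, 3 exons) was 695 and 759 TPM in K, 1019 and 986 TPM in L and 1376 and 1620 TPM in sgGal4. The groups did not overlap and their order was K, L, control. The K minus L difference was -0.46 (SE 0.13, unadjusted p = 0.00283 and adjusted p = 0.368 in limma). The other 4 genes had differences above 0. HBG2 (chr11:5274418-5276011) was 698 and 581 TPM in K against 554 and 519 TPM in L, a difference of 0.25 (95% interval -0.09 to 0.59). The sgGal4 libraries, at 941 and 673 TPM, overlapped K and lay above L. HBG1 (chr11:5269499-5271087) was 132 TPM in both K libraries against 110 and 97.4 TPM in L, a difference of 0.35 (95% interval -0.08 to 0.77). In sgGal4 HBG1 was 118 and 99.4 TPM, below K and overlapping L. The proteins of the pair are nearly identical and reads with 1 location only were kept, so the division between them is uncertain. Their sum differed by 0.27 (95% interval -0.05 to 0.58, adjusted p = 0.669).

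HBD had the widest gap of the β-like genes relative to its level. HBD (chr11:5254068-5255713, hg19, 3 exons) was 41.1 and 39.1 TPM in K, 21.6 and 20.4 TPM in L, and 19.4 and 18.5 TPM in sgGal4. L thus lay near the control and K above both. The difference was 0.90 (SE 0.25, 95% interval 0.38 to 1.43), with an adjusted p of 0.356. HBB (chr11:5246694-5248301) was low throughout, at 6.36 and 2.64 TPM in K and 3.28 and 4.26 TPM in L. In sgGal4 HBB was 4.70 and 2.91 TPM. Its K minus L difference of 0.13 had a 95% interval of -1.27 to 1.52. Leaving out K replicate 1 turned its sign (-0.38), as did leaving out L replicate 1 (-0.02).

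The HBD promoter is shown because HBD had the largest K minus L difference of the β-like genes. It is read as above, with capitals for the same 5 letter sequences.
HBD promoter, chr11:5234434-5234733 (GRCh38.p14), minus strand: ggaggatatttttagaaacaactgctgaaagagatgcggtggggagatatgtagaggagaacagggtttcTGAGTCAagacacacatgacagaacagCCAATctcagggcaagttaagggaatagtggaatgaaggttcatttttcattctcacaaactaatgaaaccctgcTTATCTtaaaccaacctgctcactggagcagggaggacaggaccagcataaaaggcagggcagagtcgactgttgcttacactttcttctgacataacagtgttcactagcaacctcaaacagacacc
This window held 1 TGAGTCA, 1 CCAAT and 1 match to TTATCT.

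The makeup of the β-like sum, a ratio within each library that no scaling by a constant moves, also separated K from L. HBE1 made up 44.2% and 50.2% of it in K, and 59.7% and 60.6% in L. In sgGal4 it made up 56.0% and 67.1%. The γ pair made up 52.8% and 47.1% in K and 38.8% and 37.9% in L, against 43.1% and 32.0% in the control. HBD made up 2.62% and 2.59% in K and 1.26% in both L libraries (0.79% and 0.77% in sgGal4). No test was run on these shares, which are given as values.

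**Figure D3:**
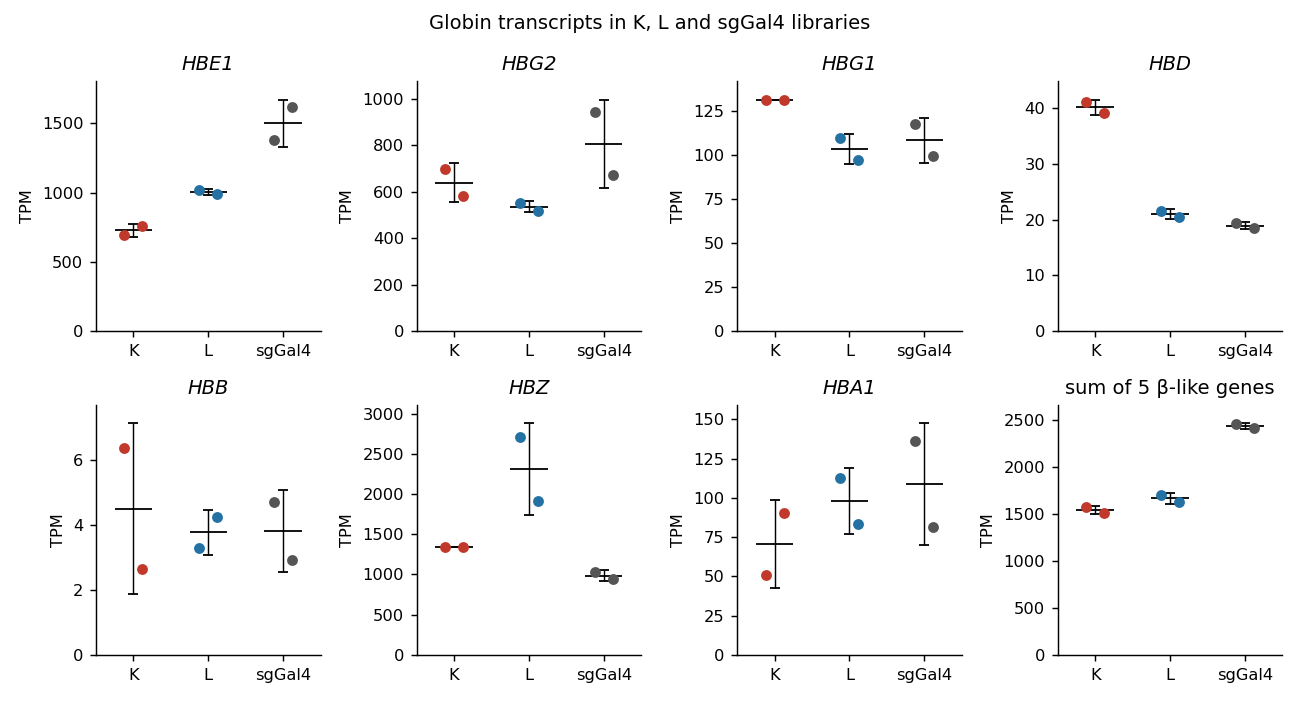
TPM (vertical axes, from 0) of 5 β-like and 2 α-like globin genes and of the β-like sum in the K, L and sgGal4 libraries. Points are libraries, horizontal lines means and error bars 1 SD (n = 2). HBE1 was lower and HBD higher in K than in L, and the 5-gene sums of K and L lay within 1513 to 1707 TPM.

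The α-like genes lie on chromosome 16, outside the locus that HS2 controls, and none passed the threshold. HBZ (embryonic ζ, chr16:202643-204502, hg19, plus strand, 3 exons) was 1345 and 1340 TPM in K and 2712 and 1909 TPM in L. In sgGal4 it was 1034 and 940 TPM. The L libraries were above the K libraries and the K libraries above the control. K minus L was -0.76 (SE 0.14, adjusted p = 0.150), the sixth smallest p of all genes tested. Without L replicate 2 the difference was -1.01 (adjusted p = 0.0190) and without L replicate 1 it was -0.51 (adjusted p = 0.365). Quantile normalization gave an adjusted p of 0.0360, and over all 19 alternatives it ran from 0.0190 to 0.563. HBA1 was 50.8 and 90.2 TPM in K and 113 and 83.1 TPM in L, and HBA2 was at most 4.89 TPM in these 4 libraries. HBA1 and HBA2 encode the same protein and share most of their sequence, so their values are uncertain. HBQ1 (θ) was 35.1 and 44.8 TPM in K and 33.1 and 37.2 TPM in L, and HBM and AHSP, the chaperone of α-globin, were listed at 0 in K and L. The α-like sum was 1432 and 1478 TPM in K and 2863 and 2034 TPM in L (difference -0.73, adjusted p = 0.143), and the ratio of the α-like to the β-like sum was 0.91 and 0.98 in K, 1.68 and 1.25 in L, and 0.49 and 0.44 in sgGal4.

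The partners of the effectors did not differ at the threshold. Of 10 KRAB corepressor genes tested, 0 passed in limma and the median difference was -0.05. At an unadjusted p under 0.05, 1 gene was lower in K, against 3.25% over all genes. That gene, SETDB1, was 24.96 and 23.1 TPM in K and 46.5 and 39.4 TPM in L (-0.81, SE 0.29, adjusted p = 0.533). The sgGal4 libraries, at 16.1 and 33.9 TPM, spanned the K values. Of 14 LSD1 and CoREST complex genes other than KDM1A, 0 passed in limma and the median was -0.01. At an unadjusted p under 0.05, 1 was higher in K (5.10% over all genes) and 2 were lower (3.25%). GFI1B, a repressor that recruits LSD1 in erythroid cells, was 32.5 and 40.5 TPM in K and 62.8 and 55.8 TPM in L (-0.69, adjusted p = 0.497).

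None of the erythroid genes tested passed the threshold. GATA1, the main erythroid transcription factor, was listed at 0 in all 10 libraries and was not tested. K562 cells are known to express it, so a value of 0 in these files does not show that a transcript is absent. Of 14 other erythroid transcription factors tested, 0 passed, 0 had an unadjusted p under 0.05 in limma, and their differences ran from -0.22 (KLF1) to 0.31 (MAFG). STAT5A had the smallest p (0.29, adjusted p = 0.740). Of 15 genes of fetal globin switching (median 0.20), MYB, a regulator of erythroid progenitors, had the smallest p, at 148 and 97.5 TPM in K and 77.5 and 93.9 TPM in L (adjusted p = 0.533). Of 13 heme synthesis genes (median -0.05), FECH, which inserts iron into protoporphyrin, was 60.7 and 52.4 TPM in K and 92.0 and 104 TPM in L (-0.79, SE 0.21, adjusted p = 0.356). FTL, the ferritin light chain, was 0.31 higher in K (adjusted p = 0.497) among 13 iron genes with a median of 0.13. Among 17 red cell membrane genes (median -0.17), GYPB, glycophorin B, was 37.5 and 39.7 TPM in K and 53.4 and 69.4 TPM in L (adjusted p = 0.533). At an unadjusted p under 0.05 in limma 1 gene of fetal globin switching and 1 of iron were higher in K, against 5.10% over all genes. At the same p, 2 genes of heme synthesis and 4 of the red cell membrane were lower, against 3.25%.

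Adhesion genes held the only call in a list other than the effector genes. Of 13 genes of the AP-1, growth factor and adhesion list tested, 1 passed, FN1. Of the 13, 10 had differences above 0, against 56.4% over all genes, with a median of 0.38 beside 0.06 for all genes. VIM, which encodes the intermediate filament vimentin, was 574 and 544 TPM in K and 351 and 375 TPM in L. It was 0.62 higher in K (SE 0.12, adjusted p = 0.150). The sgGal4 libraries had 515 and 534 TPM, the LK libraries 754 and 713 TPM and the KL libraries 431.1 and 392.4 TPM, so that VIM, like FN1, was higher in K, LK and sgGal4 than in L and KL. VIM was singled out after its values were seen, as were FAM217B (8.31 and 6.10 TPM in K, 0.54 and 0.84 TPM in L) and ALKBH3, a DNA dealkylation repair enzyme (5.64 and 5.84 TPM in K, 16.9 and 24.7 TPM in L), which together with HBZ shared the next adjusted p of 0.150.

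No gene of sterol or fatty acid synthesis passed the threshold. Of 18 mevalonate and sterol synthesis genes, 0 passed in limma, 0 had an unadjusted p under 0.05, and the median K minus L difference was -0.09. Their medians against sgGal4 were -1.11 in K and -1.003 in L. Both comparisons share the control libraries. INSIG1, which retains the sterol sensor SCAP in the endoplasmic reticulum, was 5.17 and 5.68 TPM in K, 7.97 and 16.4 TPM in L, and 38.1 and 64.5 TPM in sgGal4 (K minus L -0.96, adjusted p = 0.584). SC5D, a late enzyme of cholesterol synthesis, differed by -1.31 with a 95% interval of -2.70 to 0.09, and FADS2, a fatty acid desaturase, by -1.12 (adjusted p = 0.533). Leaving out 1 library moved SC5D between -2.33 (without K replicate 1) and -0.28 (without K replicate 2), and FADS2 between -1.75 (without L replicate 2) and -0.49 (without L replicate 1). The 11 SREBP regulation and lipid uptake genes had a median of -0.11 and the 12 fatty acid synthesis genes one of -0.20. In both, 1 gene was lower in K at an unadjusted p under 0.05 in limma, against 3.25% over all genes.

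The genes of the ATF4 response, which is induced by amino acid shortage, leaned lower in K. Of 15 tested, 12 had differences below 0, while 56.4% of all genes had differences above 0. Both K libraries lay below both L libraries in 8 of the 15, against 14.5% over all genes. None of the 15 passed in limma, and the median was -0.29. At an unadjusted p under 0.05, 2 were lower in K, against 3.25% over all genes. The median against sgGal4 was -1.17 in K and -0.89 in L. DDIT4, an inhibitor of mTORC1, was 25.4 and 22.2 TPM in K, 49.2 and 39.2 TPM in L, and 146 and 195 TPM in sgGal4 (K minus L -0.86, SE 0.24, adjusted p = 0.368). Of 13 serine, proline and one-carbon genes, 8 had both K libraries below both L libraries, against 14.5% over all genes. CTH is a member of this list and of the ATF4 list. PHGDH, the first enzyme of serine synthesis, was 23.3 and 28.9 TPM in K and 46.5 and 50.4 TPM in L (-0.88, SE 0.23, adjusted p = 0.356), with 37.7 and 48.9 TPM in sgGal4. The 12 amino acid transporters had a median of -0.01 and SLC6A9, a glycine transporter, the smallest p (adjusted p = 0.635). The 19 cytosolic tRNA synthetases had a median of -0.18, and GARS, the glycyl enzyme, differed by -0.51 (adjusted p = 0.529).

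Genes of the unfolded protein response leaned the other way. Of 15 tested, 11 had differences above 0, against 56.4% over all genes. In 8, both K libraries lay above both L libraries, against 22.6% over all genes, and the median was 0.30. DNAJB9, a chaperone of the endoplasmic reticulum, was 11.1 and 7.61 TPM in K and 2.11 and 2.64 TPM in L, and 7.61 and 9.87 TPM in sgGal4 (1.60, SE 0.39, adjusted p = 0.356). K lay in or just above the control range and L below it. LDHA, which reduces pyruvate to lactate, was 820 and 694 TPM in K and 553 TPM in both L libraries (0.45, adjusted p = 0.486), among 20 glycolysis genes with a median of 0.22. EPAS1, the hypoxia factor HIF-2α, was 14.9 and 8.0 TPM in K and 3.55 and 2.28 TPM in L (1.63, SE 0.44, adjusted p = 0.356). The hypoxia list had a median of 0.05, whose sign turned under the 3 other scalings (lowest -0.02). No list other than this one among the 30 had a median that changed sign with the scaling.

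Immediate early, interferon, cell cycle and flanking genes held no call. At an unadjusted p under 0.05 in limma, 0 immediate early, 1 interferon, 5 cell cycle and 1 flanking gene were higher in K (5.10% over all genes), and 1 interferon gene was lower (3.25%). FOSL1, an AP-1 subunit, was 46.9 and 28.7 TPM in K and 29.7 and 23.7 TPM in L (adjusted p = 0.677), among 14 immediate early genes with a median of 0.08. The 10 interferon response genes had a median of -0.11. IFITM2, an interferon-induced membrane protein, was 26.5 and 24.3 TPM in K, 13.8 and 12.1 TPM in L and 10.5 and 12.04 TPM in sgGal4 (0.92, SE 0.25, adjusted p = 0.356), so that L was near the control. Of 30 genes of replication and mitosis, 12 had both K libraries above both L libraries, against 22.6% over all genes, and the median was 0.12. RRM2, a subunit of ribonucleotide reductase, was 276 and 202 TPM in K and 176 and 154 TPM in L (adjusted p = 0.500). Of 15 genes flanking the β-globin cluster (median 0.23), OR51B5 was 26.7 and 19.6 TPM in K and 13.8 and 15.9 TPM in L (0.60, adjusted p = 0.589). OR51B5 (chr11:5363816-5364754, hg19) is an olfactory receptor gene on the locus control region side of the cluster.

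**Figure D4:**
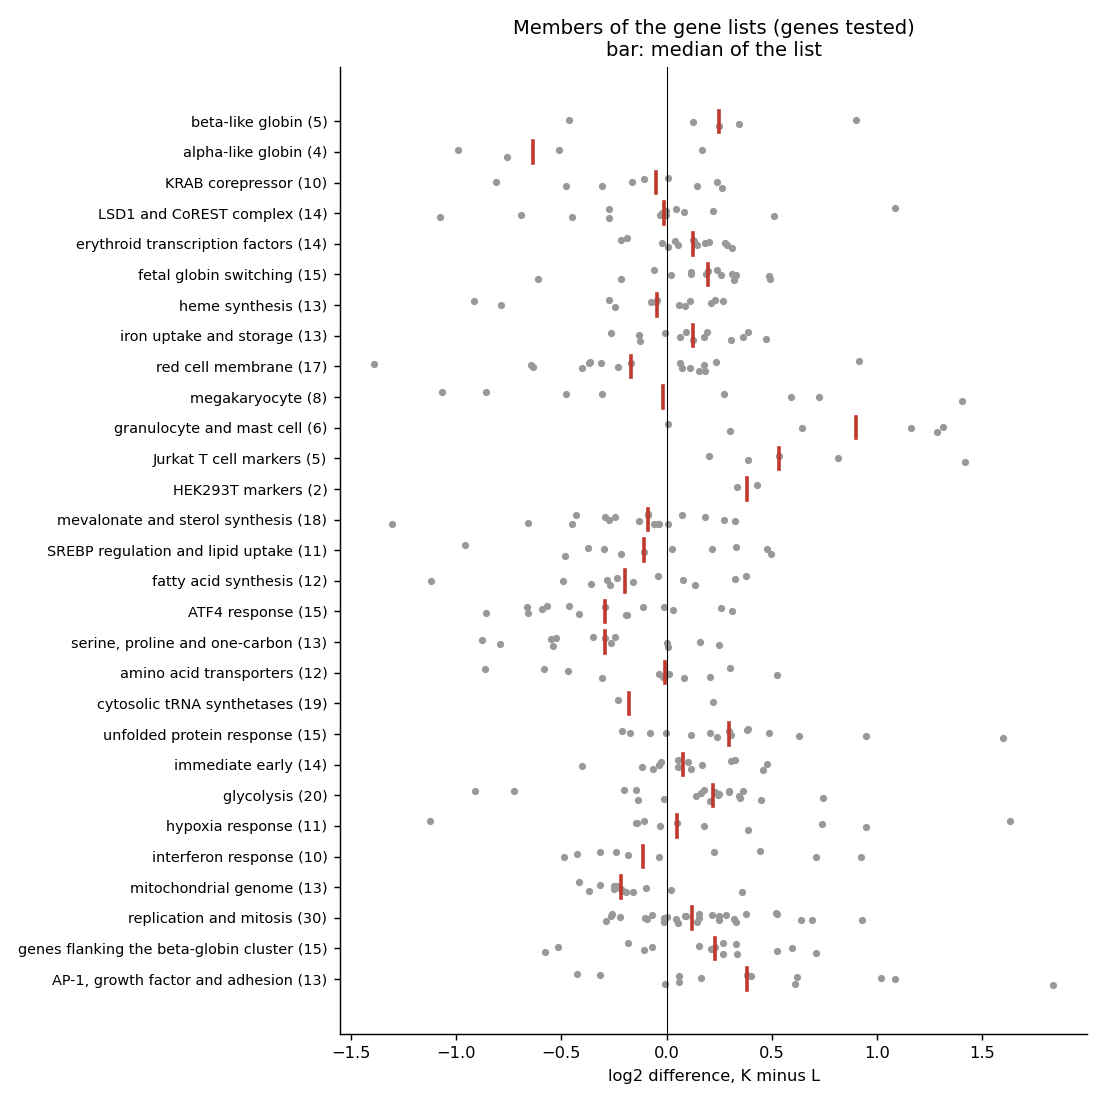
Log2 difference (K minus L, horizontal axis) of tested members of 29 gene lists, with the number tested in parentheses. Members that the data name by an older symbol, such as GARS, AARS, CARS, HARS and FAM208A, are not drawn as points. The medians and the numbers in parentheses include them. Grey points are genes and red bars list medians. Medians ran from -0.64 for the α-like globin genes to 0.90 for the granulocyte and mast cell genes, and the outlying point at 1.84 in the lowest row is FN1.

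The 13 mitochondrially encoded genes took a large and unequal part of the listed TPM, 39.9% and 44.3% in K and 46.6% and 46.1% in L. In sgGal4 they took 53.6% and 43.7%. Of these genes, 11 had both K libraries below both L libraries, against 14.5% over all genes, and the median was -0.22. MT-ND6, a complex I subunit encoded on the opposite strand to the other protein genes, went the other way, at 21018 and 23993 TPM in K and 16933 and 18074 TPM in L (0.36, adjusted p = 0.356). With the mitochondrial genes removed and the rest rescaled, 2 genes were higher and 2 lower. The median over all genes was then -0.010, beside 0.06 as reported. The difference of the β-like sum was -0.19, beside -0.11. The part of this share in single differences was not tested beyond this rescaling.

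The markers of the labelled cell type were present. All 12 K562 markers, from HBZ to TAL1 at its lowest of 13.1 TPM, exceeded 1 TPM in all 4 libraries, and their sum was 3633 to 3790 TPM in K, 4399 to 5318 TPM in L and 4170 to 4208 TPM in sgGal4. Of 15 Jurkat T cell markers, 8 (among them CD3E, LCK and CD2) were listed at 0 in K and L, and the summed level was 89.1 to 97.6 TPM in K, 67.9 to 73.0 TPM in L and 80.8 to 110 TPM in sgGal4. As for GATA1, a listed 0 for these markers or the lineage genes below does not show that a transcript is absent. CD3G, a T cell receptor chain, was 2.55 and 4.04 TPM in K and 0 and 1.51 TPM in L (adjusted p = 0.579). Of 9 HEK293T markers, 3 were listed at 0, and the sum was 170 to 176 TPM in K and 128 to 129 TPM in L, most of it GAL, a neuropeptide (161 and 163 TPM in K, 122 and 119 TPM in L, adjusted p = 0.533).

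Genes of the neighbouring blood lineages were summed in the same way. Of 18 megakaryocyte genes, 7, PF4 among them, were listed at 0. Their sum was 176 to 184 TPM in K and 133 to 134 TPM in L, and 137 to 157 TPM in sgGal4. GP1BB, a platelet glycoprotein, was the most abundant of them, at 101 and 109 TPM in K and 59.9 and 66.2 TPM in L (0.72, SE 0.18, adjusted p = 0.356). The list as a whole did not lean to K. Of 8 megakaryocyte genes tested, 4 had differences above 0 and 4 below, with a median of -0.02. Of 23 granulocyte and mast cell genes, 12, among them MPO and ELANE, were listed at 0 in K and L. The sum was 51.6 to 58.1 TPM in K, 33.4 to 41.6 TPM in L and 31.7 to 41.7 TPM in sgGal4. Of 6 granulocyte and mast cell genes tested, 6 had differences above 0, against 56.4% over all genes, with a median of 0.90. In 5, both K libraries lay above both L libraries, against 22.6% over all genes. None of the 6 passed the threshold. PRG2, an eosinophil granule protein, was 9.46 and 7.51 TPM in K and 2.71 and 3.81 TPM in L (1.16, SE 0.43, adjusted p = 0.533). In sgGal4 PRG2 was 0 and 0.26 TPM, below both groups. The part of other cell types in the differences above was not tested.

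**Figure D5:**
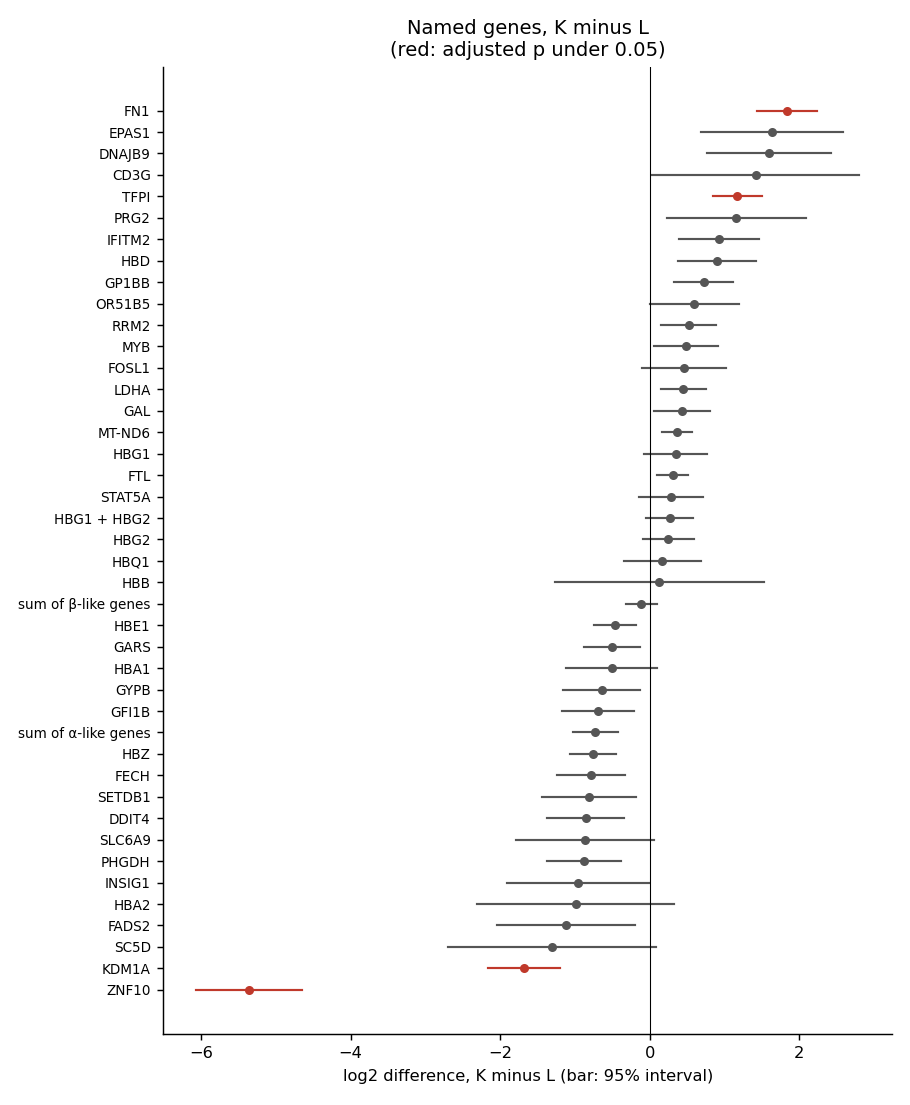
Log2 difference (K minus L, horizontal axis) of each named gene and of the 3 globin sums, with points for estimates and bars for 95% intervals. The 4 genes in red passed an adjusted p of 0.05, from ZNF10 at -5.36 to FN1 at 1.84.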

How the data were processed

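Human K562 libraries were compared, 2 labelled dCas9-KRAB (K) and 2 labelled dCas9-LSD1 (L), both with sgHS2. Groups and replicate numbers came from the labels. The authors aligned reads to hg19 with STAR 2.5.2b, kept uniquely mapped reads and deposited 1 TPM value per gene symbol and library, computed with RSEM; the labels name a poly(A) directional kit and the methods another. TPM is a share of all transcripts, so abundant genes move all others, and it keeps no read number: depth is unknown and no counting interval was given. The methods name DESeq2, which needs read counts, so it was not used.

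From the deposited TPM of 20535 genes, the 10127 whose TPM averaged 1 or more across the 10 libraries were put on the log2(TPM + 1) scale. It understates changes of low genes. All 5 groups entered 1 fit in limma 3.58.1 (R 4.3.3; 5 residual degrees of freedom, mean-variance trend), with Benjamini-Hochberg adjustment and a threshold of 0.05. Summed globin TPM was tested in the same fit. Differences from sgGal4 share its libraries and are given without a test. Named genes were all globin and effector genes, those past the threshold with non-overlapping groups (at most 15 each way), and the member with the smallest p of each other list in which none passed. Members and lists were chosen with earlier results of these data known, so lists are described by counts and medians only. On drawn data with 200 changed genes among 10127, the K minus L test recovered 37% of changes of 1 and 86% of changes of 2 log2 units. It also called 9 unchanged genes. The adjusted threshold is stricter where fewer genes change, so these shares overstate what a fit with 4 calls can recover. Positions are of canonical transcripts in GENCODE lifted to hg19. Alternatives in pseudocount, filter, scaling, trend, groups fitted, replicate block and left-out library are given at the end. Python 3.11.15, numpy 2.4.6, pandas 2.3.3 and matplotlib 3.10.9 were used.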

Additional observations from a re-analysis of the deposited data

Results flagged for a closer look

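The K and L libraries differed by a test of the difference itself in 4 genes (limma, Benjamini-Hochberg adjusted p). ZNF10 differed by -5.36 (K minus L, log2 scale; adjusted p = 1.54e-06) and KDM1A by -1.69 (adjusted p = 0.00677), each lower in 2 of 2 K libraries than in either L library. FN1 differed by 1.84 (adjusted p = 0.000491) and TFPI by 1.17 (adjusted p = 0.00658), each higher in 2 of 2 K libraries than in either L library. ZNF10 was thus lower in the libraries labelled dCas9-KRAB, and KDM1A higher in those labelled dCas9-LSD1. Across the series KDM1A was not raised in every group whose label names LSD1. It was 27.4 and 30.6 TPM in LK and 26.8 and 26.6 TPM in KL, which also name LSD1, and 25.2 and 33.5 TPM in sgGal4. ZNF10 was 36.8 and 31.5 TPM in LK and 365 and 360 TPM in KL, which both name KRAB. Which effector each library holds was not tested, nor whether transcripts of the fusion constructs are counted at these genes. FN1 was low in the L and KL libraries and high in K, LK and sgGal4.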

How the results depend on the processing

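The 4 calls (2 higher and 2 lower in K) were recomputed under 19 alternative fits, and requiring a log2 difference of 1 or more left all 4. Without a filter on low values there were 2 calls (1 higher, 1 lower), with quantile normalization 7 (3 higher, 4 lower) and without the mean-variance trend 1, with 0 higher and 1 lower (limma; 516 genes were higher at an unadjusted p under 0.05 in the fit as reported). Size factors left 1 higher. Leaving out each library in turn gave 2 to 5 calls, 1 to 2 of them higher and 1 to 3 lower. FN1 missed the threshold without the trend (adjusted p = 0.0922), and KDM1A and TFPI missed it there (0.173 and 0.300) and without the filter (0.0583 for both); TFPI also missed it with size factors (0.0620). The cause was not tested. HBB ran from -0.38 to 0.63 over the left-out libraries and HBQ1 from -0.0017 to 0.34, changing sign. Of 42 genes and sums tested, 38 were not called and 35 of these were called in no alternative. The exceptions were HBZ, the α-like sum (adjusted p = 0.0186 without L replicate 2) and MT-ND6 (2.2e-05 with quantile normalization). MT-ND4 was called there and without either sgGal4 library. HBB and 8 other named genes have no value under the filter at 10 TPM or more, nor MT-ND6 with the mitochondrial genes removed, so 10 of the 42 rest on 18 alternatives. Leaving out 1 library moved 17 of the 42 differences by over 1.5 times, with none of the 4 called genes among them. Libraries with the same replicate number did not deviate together (correlations of -0.02 to 0.02), and the replicate block gave 4 calls, 2 higher and 2 lower. Where a left-out library leaves a group with 1, that library is assumed to vary like the others. The depth is unknown, and 2 libraries a group limit what can be detected.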
